A study of Mus musculus with 28 samples.

Results

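Immediate early genes are switched on by growth factors, cytokines and many kinds of cell stress without any need for new protein synthesis, and many of them encode transcription factors that in turn switch on later genes. In liver they are known for their brief rise after partial hepatectomy and tissue injury. The 10 genes described here were Fos, Fosb, Jun, Junb, Jund, Egr1, Atf3, Myc, Ier2 and Ier3. They were taken by name, and every probe set (the group of short oligonucleotides that reads 1 transcript) that the array annotation gives to 1 of them was used: 15 probe sets out of 12422, for 10 genes out of 8251. The Fos and Jun proteins, with Atf3, pair as basic leucine zipper factors that make up or bind alongside AP-1. Egr1 is a zinc finger factor, Myc a basic helix-loop-helix factor that works with Max, Ier2 a nuclear protein and Ier3 a stress-induced regulator of cell survival.

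Mouse livers were profiled on a GeneChip that reads 1 biotin-labelled sample of total RNA per array. Livers of Aag null mice, which lack the alkyladenine DNA glycosylase that removes alkylated bases, were sampled untreated (4 arrays) and 6 h (3 arrays), 12 h (2 arrays), 24 h (4 arrays) and 48 h (3 arrays) after methyl methanesulfonate (MMS), an alkylating agent. Livers of WT mice were sampled untreated (3 arrays) and 6 h (2 arrays), 12 h (3 arrays), 24 h (2 arrays) and 48 h (2 arrays) after MMS. The labels give no strain, sex, age, dose, route or vehicle, the controls of both genotypes are untreated animals, and they do not say whether replicates came from separate animals, so p-values measure the spread between these samples. In whole liver, fewer cells of a type and less RNA per cell cannot be told apart.

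The sequences around the start sites of these genes were searched for motifs, among them some that stress-regulated factors are known to read. The RefSeq promoter table (build GRCm38.p6) held 7 of the 10 members, as windows of 300 bases that span the start, mostly before it. Egr1, Myc and Ier2 were not in it. Sites outside the windows were not searched, so a count of 0 does not mean that a gene lacks the element. The cAMP response element TGACGTCA, the site of CREB and ATF proteins, was in 0 of the 7 windows and in 1.79% of 32851 windows of that length. The AP-1 site TGANTCA (7.81% of all windows), the Egr site GCGTGGGCG (0.612%), the E-box CACGTG (7.15%) and the CArG box of serum response factor (1.63%) were also in 0 of the 7. The GC box GGGCGG was in 5 of the 7 (35.7% of all windows) and TATAAA in 2 (8.32%). The half-site TGACG, which is part of the cAMP response element and was searched after the whole element gave no match, was in 4 of the 7 (20.8% of all windows). Both strands were read for every motif other than TATAAA, which was read on the strand of the gene alone. The 120 bases before the start of those 4 genes are printed because they hold this half-site, which the windows of the AP-1 members Jun and Jund do not, with TGACG or its complement CGTCA in capitals, as a description of letters and not of binding.
Fos, chr12:85473770-85473889, plus strand: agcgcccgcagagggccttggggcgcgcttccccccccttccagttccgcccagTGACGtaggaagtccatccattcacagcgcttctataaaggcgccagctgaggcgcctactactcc
Fosb, chr7:19310046-19310165, minus strand: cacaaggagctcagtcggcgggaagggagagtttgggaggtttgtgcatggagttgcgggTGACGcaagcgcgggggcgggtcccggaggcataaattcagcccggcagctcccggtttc
Junb, chr8:84978749-84978868, minus strand: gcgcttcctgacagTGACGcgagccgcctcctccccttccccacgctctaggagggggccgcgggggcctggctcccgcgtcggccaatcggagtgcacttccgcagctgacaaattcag
Atf3, chr1:191183334-191183453, minus strand: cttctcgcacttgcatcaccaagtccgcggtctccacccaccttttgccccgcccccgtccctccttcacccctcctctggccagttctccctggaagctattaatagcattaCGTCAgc

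Signals are given as log2 values after quantile normalization, so that 1 unit is a 2-fold difference, and differences are tested group less group. The signal of 8 of the 8 hepatocyte markers was above the array median on every array. The arrays fell into a high set and a lower set by their hybridization controls, transcripts added to the labelled sample: 10.25 to 11.65 on 5 arrays (Aag untreated replicates 3 and 4 and the 3 WT untreated arrays) and 6.42 to 9.22 on the other 23. The difference between 3′ and 5′ Gapdh probe sets also parted the sets, with 0.63 to 0.92 in the high set and -0.37 to 0.21 in the lower one. WT untreated arrays lay in the high set alone and all treated arrays in the lower one, so a WT response can be set apart from the array set only through the split among the Aag untreated arrays. Of the Aag arrays, 3 (untreated replicate 3, and replicates 1 and 2 at 24 h) read 7.73 to 8.22 for the female-typical Cyp2b9, which was at most 4.21 on any other array. The 2 arrays of WT liver at 6 h correlated least of any replicates (r = 0.929 over probe sets), and WT replicate 1 at 6 h correlated at 0.992 with Aag replicate 1. Mpg, the gene deleted in Aag null mice, was dim in both genotypes, with 2.27 to 2.60 on Aag arrays and 2.38 to 2.87 on WT arrays, and where its probes lie relative to the deletion is not known here, so it does not check the labels.

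Egr1, which is known to couple growth and stress signals to transcription, was the one member called lower at every time after MMS in Aag null liver. Its brighter probe set, 98579_at, read 4.50, 4.97 and 4.87 at 6 h, 4.73 and 4.81 at 12 h, 4.997, 4.93, 5.13 and 4.75 at 24 h, and 4.81, 4.96 and 4.91 at 48 h, against 6.00, 5.48, 5.58 and 5.24 in untreated Aag liver. Every treated Aag array lay below every untreated Aag array, so the groups did not overlap at any time. Groups this small can part by chance. The share of all probe sets without overlap is not given here, for Egr1 or for any other member, so such a gap only describes the readings. The differences were -0.79 (SE 0.142, 95% interval -1.09 to -0.50, limma adjusted p = 0.0209) at 6 h, a signal 1.73-fold lower. At 12 h the difference was -0.80 (SE 0.161, adjusted p = 0.0416). At 24 h it was -0.62 (SE 0.132, adjusted p = 0.041), and at 48 h it was -0.68 (SE 0.142, adjusted p = 0.0438). All 4 responses share the same 4 untreated arrays. Egr1 was the 1 member of 10 called in each of them, beside 0.314%, 0.129%, 0.499% and 0.233% of all probe sets in order of time.

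Within the lower array set, where 2 untreated Aag arrays remained, the Egr1 responses in Aag liver were -0.96 at 6 h (adjusted p = 0.00636), -0.97 at 12 h (0.0138), -0.79 at 24 h (0.0122) and -0.85 at 48 h (0.0266). Egr1 was again the 1 member called, beside 0.217%, 0.29%, 0.781% and 0.121% of all probe sets at the 4 times. Without the 3 female-typical arrays the sizes were -0.79, -0.80, -0.64 and -0.68, and none passed the threshold (adjusted p = 0.126, 0.155, 0.616 and 0.212). Leaving out Aag untreated replicate 3 alone gave adjusted p = 0.062, 0.112, 0.0889 and 0.151. The call was also lost without Aag replicate 1 or 3 at 6 h, and without any single array of the time at 12, 24 and 48 h, with the sign kept. The summed levels of all 8 lists of cell type markers, from hepatocytes to erythroid cells, overlapped between all treated Aag arrays together and the untreated ones. By time, endothelial markers at 6 h (8.17 to 8.28) and 12 h (8.18 and 8.25) lay below every untreated Aag array (8.34 to 8.57). Hepatocyte markers at 12 h (13.955 and 13.9806) lay just below the lowest untreated Aag array (13.9813). The part of these markers in the Egr1 responses was not tested. The dim second probe set of Egr1, 161802_i_at, below the array median on all 28 arrays, gave -0.09, 0.04, 0.01 and 0.08 at the 4 times, with no call. The annotation lists no accession for that probe set, so the transcript it reads was not checked.

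**Figure D1:**
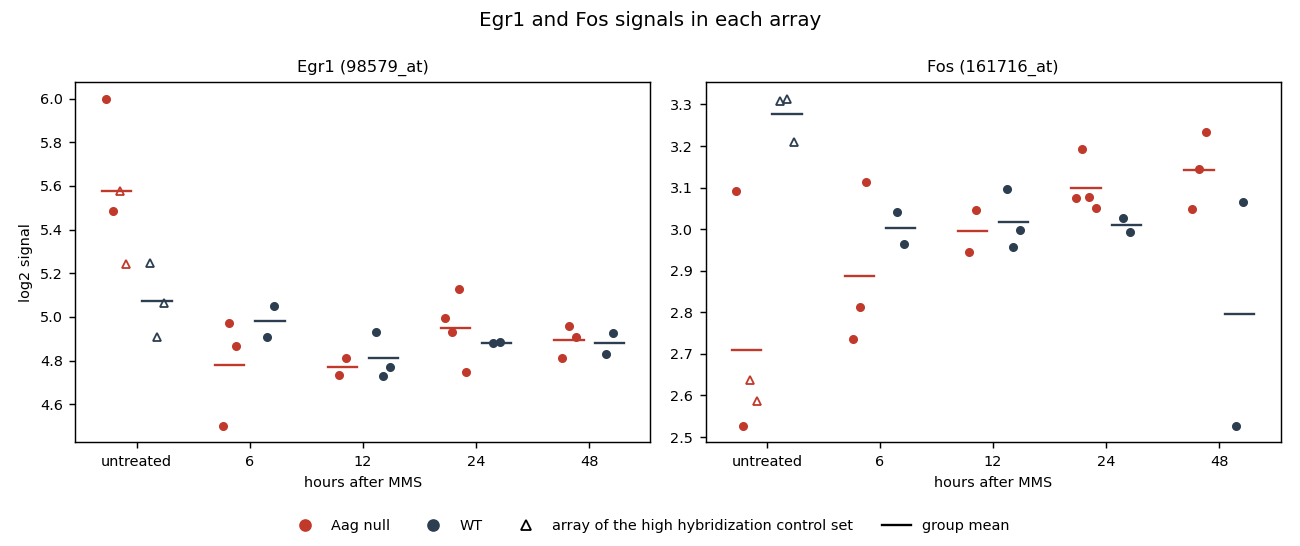
Normalized log2 signal of each array for Egr1 (98579_at) and Fos (161716_at) in the 10 groups, with group means as bars. Egr1 reads 5.24 to 6.00 on the untreated Aag arrays and at most 5.13 on the treated ones, and Fos reads at most 3.23 on any Aag array and 3.21 to 3.31 on the 3 WT untreated arrays.

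In WT liver Egr1 showed no called response. It read 4.91 and 5.05 at 6 h, 4.93, 4.73 and 4.77 at 12 h, 4.88 and 4.88 at 24 h, and 4.83 and 4.93 at 48 h, against 5.25, 4.91 and 5.07 in untreated WT liver. The WT differences were -0.09, -0.26, -0.19 and -0.20 (adjusted p = 0.749, 0.223, 0.481 and 0.462 by limma). The interaction, the Aag response less the WT response, was -0.70 at 6 h (SE 0.222, adjusted p = 0.167), -0.54 at 12 h (0.366), -0.43 at 24 h (0.414) and -0.49 at 48 h (0.278), so a difference between the genotypes' Egr1 responses was not established. By group mean, Egr1 was highest in untreated Aag liver (5.58 ± 0.32, SD, n = 4), then in untreated WT liver (5.07 ± 0.17, SD, n = 3). The 8 treated groups followed, between 4.98 ± 0.10 (SD, n = 2) in WT liver at 6 h and 4.77 ± 0.06 (SD, n = 2) in Aag liver at 12 h, and the arrays of any 2 neighbours in that order overlapped.

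Untreated Aag liver had a higher Egr1 signal and a lower Fos signal than untreated WT liver, the 2 members of 10 called there beside 9.36% of all probe sets. Egr1 differed by 0.50 (SE 0.142, adjusted p = 0.0288), with 6.00, 5.48, 5.58 and 5.24 in Aag liver and 5.25, 4.91 and 5.07 in WT liver, where 1 Aag array lay just below the highest WT array. Without WT untreated replicate 2 or 3, or Aag untreated replicate 1, its adjusted p was 0.109, 0.0505 and 0.101. The dim second Egr1 probe set, 161802_i_at, averaged 2.21 in Aag and 2.28 in WT untreated liver, with no call. Fos (161716_at) differed by -0.57 (SE 0.127, adjusted p = 0.00725), with 3.09, 2.53, 2.64 and 2.59 in Aag liver and 3.31, 3.31 and 3.21 in WT liver. No Aag array reached the lowest WT array for Fos. With the array set as a term Egr1 differed by 0.33 (adjusted p = 0.239) and Fos by -0.67 (adjusted p = 0.0124), 1 member called beside 4.81% of probe sets. Within the high set alone, 2 Aag and 3 WT arrays, Egr1 again differed by 0.33 (adjusted p = 0.201) and Fos by -0.67 (adjusted p = 0.00561), 1 member beside 4.65%. Erythroid markers, 8.33 to 9.10 in summed log2 level in Aag and 9.19 to 10.36 in WT untreated arrays, and bile duct markers, 4.29 to 4.40 in Aag and 4.55 to 5.03 in WT, moved with this comparison, and their part in it was not tested. Of the 3 bile duct markers, Krt7 and Epcam lay below the array median on every array, and of the 3 erythroid markers none did. The other 6 marker lists overlapped between the genotypes.

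Fos, the founding partner of Jun in AP-1, was dim: 161716_at lay below the array median on all 28 arrays, and the annotation lists no accession for it. In WT liver it read 3.04 and 2.96 at 6 h, 3.10, 2.96 and 3.00 at 12 h, 3.03 and 2.99 at 24 h, and 2.53 and 3.07 at 48 h, against 3.31, 3.31 and 3.21 in untreated WT liver. All 9 treated WT arrays lay below the untreated ones. The 48 h difference was called (-0.48, SE 0.152, adjusted p = 0.0315, 1.40-fold lower), but it rested on 1 array: without WT 48 h replicate 1 it was -0.21 (adjusted p = 0.473). Without WT untreated replicate 1 or 2 the adjusted p was 0.0621 and 0.0609. A fit with the array set as a term gave -0.68 (adjusted p = 0.0983). Endothelial markers (8.03 to 8.44 in treated and 8.45 to 8.65 in untreated WT arrays) and erythroid markers (8.12 to 8.80 in treated and 9.19 to 10.36 in untreated arrays) did not overlap either in WT liver. At 48 h, replicates 1 and 2 also stood apart for hepatocyte (13.88 and 14.00, untreated 14.03 to 14.09) and neutrophil markers (8.45 and 8.31, untreated 8.48 to 8.50). Stellate cell markers stood higher (8.95 and 8.52, untreated 8.26 to 8.44), with 2 of 8 called higher and 2 lower. The part of all these markers was not tested. The endothelial list had Cdh5, Kdr, Tek and Tie1, 4 of its 8 markers, below the array median on every array.

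In Aag liver the Fos differences were positive, with no call. The probe set read 2.74, 2.81 and 3.11 at 6 h, 2.94 and 3.05 at 12 h, 3.08, 3.19, 3.08 and 3.05 at 24 h, and 3.05, 3.14 and 3.23 at 48 h, against 3.09, 2.53, 2.64 and 2.59 in untreated Aag liver. Untreated replicate 1 lay within or above the treated arrays at each time, and the other 3 untreated arrays lay below every treated one. The differences were 0.18, 0.28, 0.39 and 0.43 (adjusted p = 0.602, 0.541, 0.134 and 0.13); without that array they were 0.52 at 24 h (adjusted p = 0.0166) and 0.56 at 48 h (adjusted p = 0.00907). The interaction at 48 h was called, 0.91 (SE 0.198, adjusted p = 0.0176), 1 member of 10 beside 1.8% of probe sets. It was 0.64 (adjusted p = 0.202) without WT 48 h replicate 1 and 0.87 (adjusted p = 0.0589) without Aag 48 h replicate 3. At 6, 12 and 24 h it was 0.45, 0.55 and 0.66 (adjusted p = 0.362, 0.28 and 0.114). The second Fos probe set, 160901_at, also below the median on all arrays, gave differences between -0.08 and 0.21 in the same 9 contrasts against untreated liver, with no call. With median centring in place of quantile normalization its difference in WT liver at 48 h was -0.46 (adjusted p = 0.0396). By group mean Fos was highest in untreated WT liver (3.28 ± 0.06, SD, n = 3) and lowest in untreated Aag liver (2.71 ± 0.26, SD, n = 4), and the arrays of neighbouring groups in that order overlapped.

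**Figure D2:**
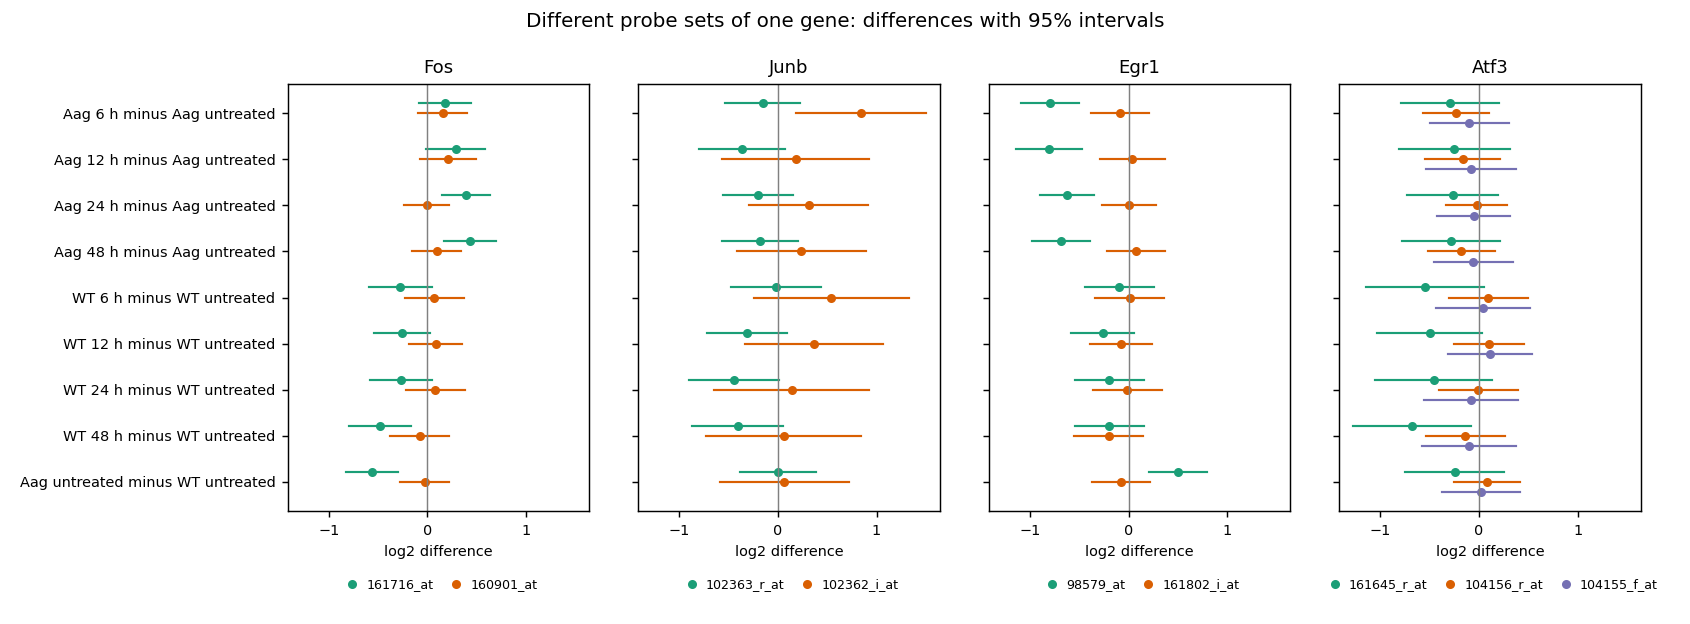
Log2 differences with 95% intervals from the limma fit for the 4 members with more than 1 probe set, Fos, Junb, Egr1 and Atf3, in 9 comparisons against untreated liver. The Egr1 probe set 98579_at stands below 0 at all 4 times in Aag liver (-0.62 to -0.80) while 161802_i_at lies at 0 within its intervals.

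Among WT responses no further member was called. At 6, 12 and 24 h, 0 of 10 members were called by limma, beside 16.8%, 21.7% and 15.1% of all probe sets. An unadjusted p under 0.05 was found for 0, 1 and 1 members, beside 3880, 4363 and 3658 of 12422 probe sets. At 48 h, 1 member (Fos) was called beside 17.6%, and 2 had an unadjusted p under 0.05, beside 3851 of 12422 probe sets. The members' median difference was -0.12, -0.20, -0.23 and -0.19 in order of time, where the median of all probe sets was 0.01, 0.03, 0.02 and 0.02. For 9 of 10 members the 95% interval lay within 2-fold in either direction at each time, as for 82.5%, 86.5%, 84.3% and 83.2% of all probe sets. The exception at each time was Atf3, whose interval reached below -1. These intervals are for the signal of the probe sets, and those of Fos, Jun, Myc and Ier3 lay below the array median on all 28 arrays, so for these 4 they set no bound on the transcript. The first sampled time was 6 h.

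Of the Fos and Jun partners, none was called in any comparison. Fosb, a Fos relative (103990_at, 4.57 to 5.24 over 28 arrays), differed by 0.02 to 0.27 across the Aag responses and by -0.14 to -0.27 across the WT responses. Its largest Aag response, at 48 h, had readings of 5.22, 5.06 and 5.07 against 5.23, 4.81, 4.57 and 4.78 in untreated Aag liver (adjusted p = 0.332). Without Aag untreated replicate 1 it was 0.40 (adjusted p = 0.0459). Jun, the main DNA-binding partner of Fos (100130_at, below the array median on all arrays), was 3.68, 3.62 and 3.76 in WT liver at 12 h and 3.66 and 3.64 at 24 h, against 4.09, 3.97 and 3.81 in untreated WT liver. These groups did not overlap, yet the differences of -0.27 (adjusted p = 0.102) and -0.31 (adjusted p = 0.117) missed the threshold. In Aag liver the 4 Jun differences lay between -0.04 and 0.03 (adjusted p of 0.883 or more).

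Junb, a Jun relative that often restrains Jun, and Jund, the constitutive member of the family, were above the array median on all 28 arrays. Junb (102363_r_at) differed by -0.16 to -0.36 in the Aag responses and by -0.02 to -0.44 in the WT responses, with no call. Its second probe set, 102362_i_at, had the opposite sign, with positive differences, in all 8 of these contrasts. In Aag liver at 6 h that probe set read 5.21, 7.38 and 5.56, against 5.70, 5.36, 4.88 and 4.89 in untreated Aag liver. The difference of 0.84 (SE 0.318, adjusted p = 0.249) came mostly from the single array at 7.38. Jund (102364_at) ranged from 6.95 to 8.12, and its group means from 7.26 to 7.87.

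At 6 h the readings of Junb, Jund and Ier2 differed between replicates 1 and 2 in both genotypes. Replicate 1 read 5.27 for Junb in Aag liver and 5.45 in WT liver, while replicate 2 read 6.28 in Aag liver and 6.32 in WT liver. For Jund the pair was 7.17 in Aag and 7.36 in WT liver for replicate 1, and 8.08 in Aag and 8.12 in WT liver for replicate 2. Ier2 ran the other way, with 4.69 in Aag and 4.44 in WT liver for replicate 1 and 3.82 in Aag and 3.11 in WT liver for replicate 2. For all 3 genes the gap between same-numbered Aag and WT arrays was smaller than the gap between replicates 1 and 2 of either genotype. Aag replicate 3 read 5.69 for Junb, 7.88 for Jund and 3.88 for Ier2.

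**Figure D3:**
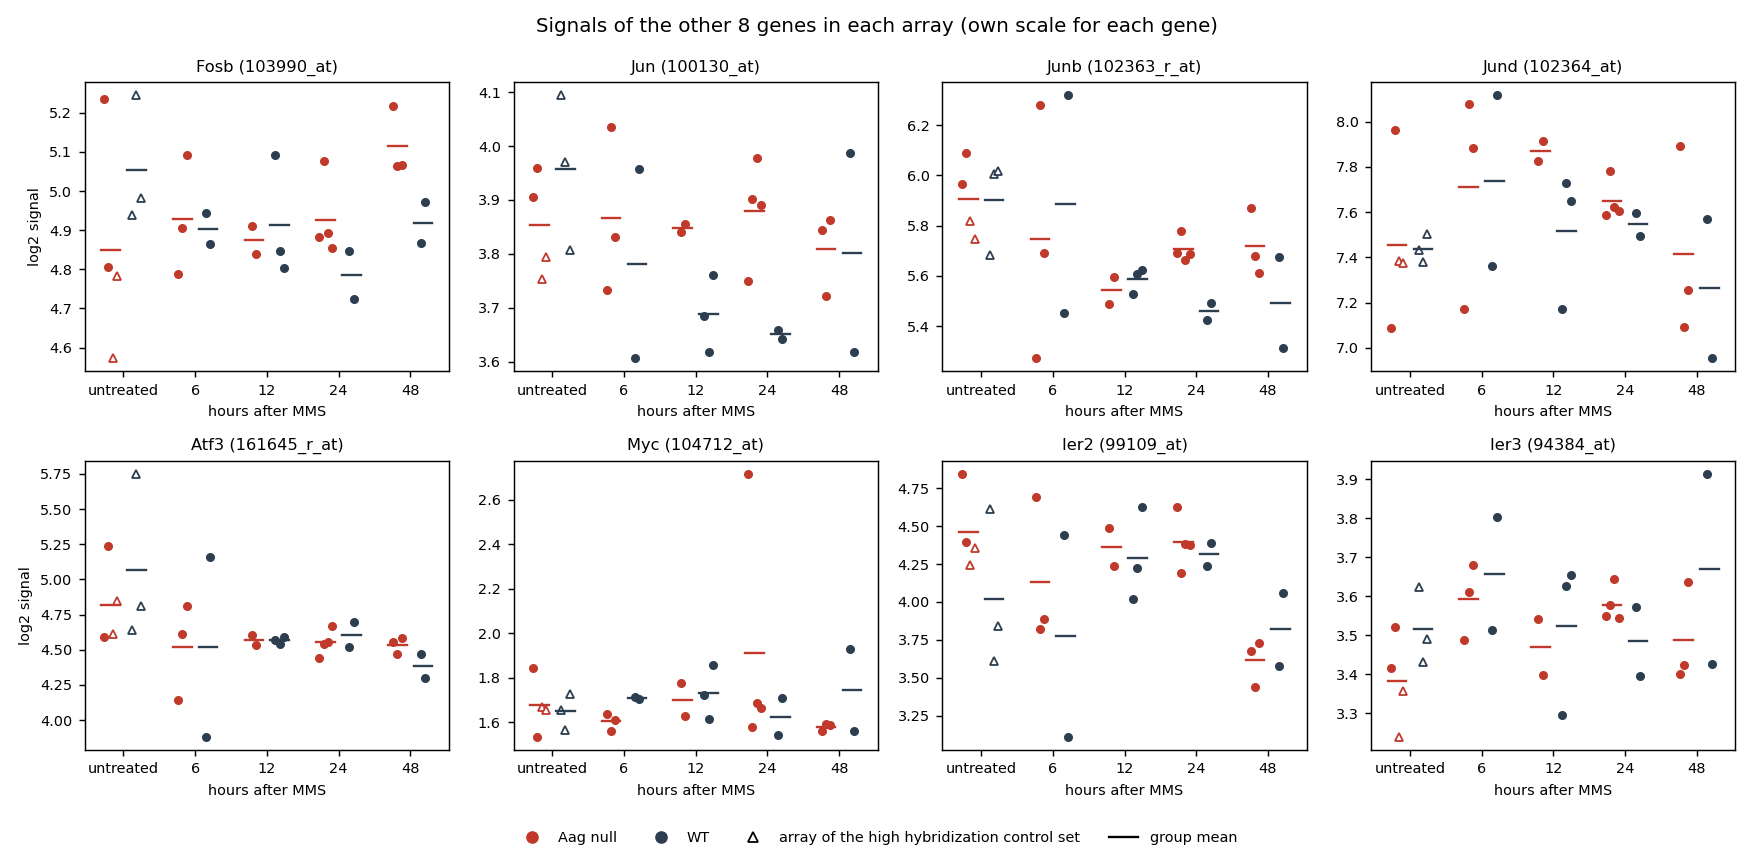
Normalized log2 signal of each array for the brightest probe set of the other 8 members in the 10 groups, with group means as bars and each panel on its own scale. Myc has a single array at 2.72 in Aag liver at 24 h, and Ier2 reads 3.44 to 3.73 in Aag liver at 48 h.

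Atf3, a stress-induced repressor of the ATF family, was read by 3 probe sets. The brightest, 161645_r_at, had 3.88 and 5.16 at 6 h, 4.57, 4.54 and 4.59 at 12 h, 4.52 and 4.70 at 24 h, and 4.47 and 4.30 at 48 h in WT liver, against 4.64, 5.75 and 4.81 in untreated WT liver. Readings were lower at 12 and 48 h without overlap. The 4 differences, -0.55, -0.50, -0.46 and -0.68, had adjusted p = 0.2, 0.17, 0.296 and 0.106 by limma. Without WT 6 h replicate 2, the difference at 6 h was -1.18 (adjusted p = 0.00611), and without WT untreated replicate 1 that at 48 h was -0.90 (adjusted p = 0.0473). In Aag liver the 4 differences lay between -0.25 and -0.30. The other probe sets, 104156_r_at and 104155_f_at, gave differences between -0.14 and 0.11 in WT liver, with no call, although 104155_f_at at 12 h gave 0.48 (adjusted p = 0.0324) without WT untreated replicate 2.

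Myc, the driver of ribosome production and growth, was read by 1 dim probe set (104712_at, 1.54 to 1.93 on 27 arrays). The 1 other array, Aag 24 h replicate 1, read 2.72, where the 3 further Aag arrays of that time read 1.58, 1.69 and 1.66. The Aag response at 24 h was 0.24 (SE 0.16, adjusted p = 0.558). The probe set lay below the array median on all 28 arrays, so a low Myc level was not resolved here.

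Ier2 and Ier3 belong to the same early wave and were not called. Ier2 (99109_at, above the array median on 17 arrays) read 3.67, 3.44 and 3.73 in Aag liver at 48 h, against 4.85, 4.40, 4.25 and 4.36 in untreated Aag liver. These groups did not overlap, and the difference of -0.85 (SE 0.266, 95% interval -1.40 to -0.30) had an adjusted p of 0.148. In WT liver at 48 h Ier2 read 3.58 and 4.06, against 4.62, 3.61 and 3.84 in untreated WT liver (-0.20, adjusted p = 0.706). Ier3 (94384_at) was below the array median on all arrays, between 3.24 and 3.91, and its group means spanned 3.38 to 3.67.

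Among treated livers no member was called between the genotypes. At 6, 12, 24 and 48 h the limma count was 0 of 10 members, beside 0.0483%, 0.00805%, 0% and 0% of probe sets, with 0, 0, 0 and 1 members at an unadjusted p under 0.05. The members' differences, Aag less WT, ran from -0.20 to 0.36 at 6 h, -0.05 to 0.35 at 12 h, -0.06 to 0.29 at 24 h and -0.21 to 0.35 at 48 h. The 95% interval lay within 2-fold for 9 of 10 members at 6 h, Ier2 being the exception, and for 10 of 10 at the later times. Interactions at 6, 12 and 24 h called 0 members by limma, beside 0.7%, 0.572% and 0.564%. An unadjusted p under 0.05 was found for 2, 2 and 1 members, beside 1474, 1340 and 1574 of 12422 probe sets. These members were Egr1 and Fos at 6 and 12 h and Fos at 24 h.

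In the 48 h less 6 h contrast, 0 of 10 members were called in Aag liver (beside 0.0403% of probe sets) and 0 of 10 in WT liver (beside 0.29%). An unadjusted p under 0.05 was found for 0 members in either, beside 900 of 12422 probe sets in Aag liver and 806 in WT liver. With so few probe sets called, these counts say nothing particular about the members. The largest Aag difference was that of Ier2 (-0.52, adjusted p = 0.736), and the largest WT difference that of Jund (-0.48).

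**Figure D4:**
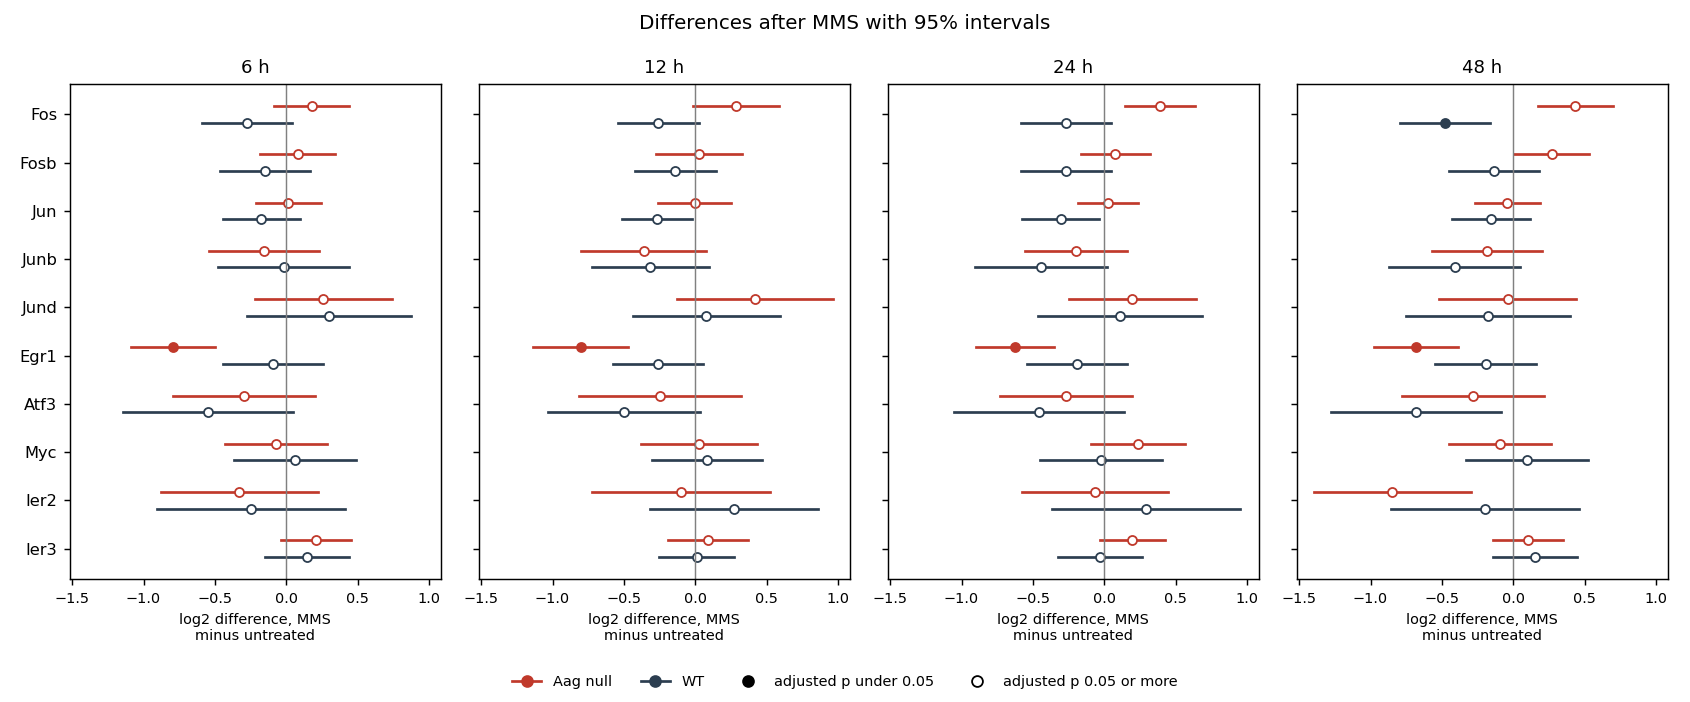
Log2 differences of the 10 members (brightest probe set) in Aag and WT liver at 6, 12, 24 and 48 h after MMS against untreated liver of the same genotype, with 95% intervals from the limma fit. Egr1 in Aag liver lies between -0.62 and -0.80 at every time, and Atf3 in WT liver between -0.46 and -0.68 with wide intervals.

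Genes of the pathways around the members were counted from lists chosen with earlier results of these data known, through each gene's brightest probe set. In Aag liver no gene of the 5 lists was called at 6, 12 or 24 h without a term for the array set. With 0.314%, 0.129% and 0.499% of all probe sets called there, these counts say nothing particular about the lists. At 48 h, where 0.233% were called, 1 list gene was called: Atf5, a stress-response factor of the ATF family (-1.11, SE 0.198, limma adjusted p = 0.0331). That call did not remain with the array set as a term. Atf5 was also lower at 48 h than at 6 h in Aag liver by limma (-1.42, adjusted p = 0.00729). That contrast uses no untreated array, and all its arrays lie in the lower set. A term for the array set therefore cannot change its size, and the call under that term (limma adjusted p = 0.00403) is no separate check. In WT liver, where 15.1% to 21.7% of all probe sets were called, the 12 other AP-1 family genes had 1 higher and 2 lower at 6, 12 and 24 h, and 0 higher and 2 lower at 48 h. Atf5 was lower at all 4 times (-0.83, -0.98, -1.64 and -1.47), as was Batf3 (-0.63, -0.53, -0.55 and -0.67), and Mafk, a small Maf partner, was higher at the first 3 (0.39, 0.42 and 0.49). Once the array set was a term, Atf5 kept its call at 24 and 48 h and Mafk at 12 and 24 h, and Batf3 kept none. In untreated liver Atf5 was also lower in Aag than in WT (-0.92, adjusted p = 0.00552), a call that remained with the array set as a term.

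Of 41 other immediate early genes, 4, 4, 2 and 2 were higher and 2, 3, 1 and 2 lower in WT liver at 6, 12, 24 and 48 h. Beside them, 16.8%, 21.7%, 15.1% and 17.6% of all probe sets were called in either direction, so these counts do not single out the list. Ccn1, a secreted matricellular protein, was lower at all 4 times (-0.93, -1.07, -1.16 and -1.02). Its signal was dim, with group means of 2.44 to 2.67 after MMS and 3.60 in untreated WT liver, where the array median was 4.10. The orphan nuclear receptor Nr4a1 was lower at 6 h (-0.43) and 48 h (-0.43). Gadd45b, a stress and growth arrest gene, was higher at 6 h (0.82) and 48 h (0.72). Rhob, a small GTPase, was higher at 6 h (1.24) and 24 h (1.18), the kinase gene Pim3 at 12 h (0.86) and 24 h (1.15), and the kinase gene Plk3 at 12 h (0.76). None of these calls remained with the array set as a term. That fit, which called 185, 310, 325 and 372 of 12422 probe sets in WT liver at the 4 times, called other list genes. They are named here after their values were seen. In WT liver these were Cebpd, a C/EBP family transcription factor, at 6, 12 and 24 h (1.45, 1.38 and 1.47, limma adjusted p = 0.0382, 0.0287 and 0.025) and Id1, an inhibitor of basic helix-loop-helix factors, at 48 h (1.38, adjusted p = 0.034). Without the term Cebpd differed by 0.67, 0.60 and 0.70 (adjusted p = 0.0971, 0.0833 and 0.0904) and Id1 by 0.50 (adjusted p = 0.249). The term is estimated from the split among the untreated Aag arrays alone, so the larger sizes rest on those arrays. In Aag liver the fit with the term called Cebpb, another C/EBP factor, at 12 h (1.60, limma adjusted p = 0.0475) and 24 h (1.34, adjusted p = 0.0353). Of 12422 probe sets that fit called 29 and 69 there. Without the term Cebpb differed by 0.75 (adjusted p = 0.59) and 0.49 (adjusted p = 0.573). Aag against WT untreated liver had 1 higher, Id2 (0.96, limma adjusted p = 0.0482), and 1 lower, Ccn1 (-0.75, adjusted p = 0.0033). Of all probe sets 9.36% were called there. Neither call remained with that term, under which Klf10 (0.80) and Cebpd (0.83) were higher and Tnfaip3 (-0.47) lower, beside 4.81% of all probe sets. Without the term these 3 differed by 0.39, 0.44 and -0.34, and none was called.

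Upstream, 17 genes of the MAPK and serum response factor pathway had 0, 0, 1 and 0 higher and 1, 3, 1 and 2 lower in WT liver at the 4 times. The share of all probe sets called, 16.8%, 21.7%, 15.1% and 17.6%, stands beside these counts and the MYC counts below. Rps6ka3, a kinase downstream of ERK, was lower at all 4 times (-0.68, -0.56, -0.57 and -0.81). The JNK pathway kinase Map3k1 was lower at 48 h (-0.69), the 1 call that remained with the array set as a term. Both were dim, where the array median was 4.10. Group means of Rps6ka3 were 1.29 to 1.53 after MMS and 2.09 in untreated WT liver, and those of Map3k1 were 3.21 at 48 h and 3.90 untreated. Of 11 genes of the MYC network, 3, 2, 1 and 1 were higher and 0 lower, among them Mlx (0.55) and the Myc antagonist Mxd4 (0.71) at 6 h, and none of these calls remained with that term. Of 24 MYC targets, 3, 4, 2 and 0 were higher and 1, 0, 0 and 1 lower. Srm, spermidine synthase, was higher at 6 h (1.21), 12 h (0.85) and 24 h (0.77), and its calls at 6 and 12 h remained with the array set as a term. Ldha, lactate dehydrogenase A, was higher at 6 h (0.86) and 12 h (0.99), without remaining. With that term Ldha was lower in Aag liver at 24 h (-0.63, limma adjusted p = 0.026). Without it the difference was -0.27 (adjusted p = 0.446). The medians of the 5 lists in WT liver lay between -0.14 and 0.26, where that of all probe sets was 0.01 to 0.03.

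Over the 21 treated arrays, members correlated with each other from -0.61 (Junb with Ier2) to 0.71 (Junb with Jund), with Jun and Junb at 0.69. These arrays span 8 groups and share array-wide features, so the coefficients describe the arrays. For the 6 members above the array median on at least 2 arrays, the most alike probe sets of other genes were sought. Egr1 was most like Cdc45 (Pearson 0.76, Spearman 0.67), Ccna2 (0.69, 0.44) and Zbtb45 (0.69, 0.49), the first 2 being genes of DNA replication and the cell cycle. Jund was most like Rela (0.89, 0.89), a subunit of NF-kappaB, Adprhl2 (0.85, 0.83) and Dmpk (0.80, 0.83). Ier2 was most like Mst1 (0.95, 0.91), Dalrd3 (0.91, 0.85) and Nr1h3 (0.91, 0.91). Junb was most like Ndst2 (0.87, 0.85), Bcl3 (0.87, 0.59) and Pik3r2 (0.86, 0.70). Atf3 was most like Srpk3 (0.94, 0.83), Colq (0.93, 0.81) and Sf3a2 (0.92, 0.65), and Fosb less closely like Lat (0.78, 0.67), Ap2b1 (0.72, 0.67) and Kdm1a (0.71, 0.62).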

How the data were processed

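Each deposited value is a log2 signal of 1 probe set on 1 array, as made by the authors. The labels name no unit, and log2 was taken from the range of 0.689 to 13.2. How images were read, summarized and scaled is not stated in the labels; per the labels' protocols, RNA was column-purified and biotin-labelled. Control probe sets (66 of 12488) were dropped. Quantile normalization of the remaining 12422 followed, since the medians of the arrays spanned 0.218. The array annotation gave 1 symbol to 10833 probe sets, several to 396 and none to 1193.

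A single limma fit (version 3.58.1, R 4.3.3) held all 28 arrays and 10 group means, leaving 18 residual degrees of freedom, with eBayes using a trend. P-values were adjusted by Benjamini-Hochberg over all probe sets, separately for each of 19 comparisons, with no filter on dim probe sets. A probe set was called at an adjusted p under 0.05, and a gene counts through its brightest probe set. The pipeline was tested on simulated data. Alternatives were the deposited scale, median centring, a filter keeping probe sets above the array median on at least 2 arrays, 1 probe set per gene, array weights, the array set, fits of only those groups compared, the replicate number as a block and leaving out arrays. The members and lists were chosen with earlier results of these data known. All members were named in every comparison, with up to 4 called genes of each other list and comparison by adjusted p, and the 3 probe sets most like each member. Sequences came from RefSeq. Plots used matplotlib 3.10.9 under Python 3.11.15. The number of arrays limits the precision.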

Additional observations from a re-analysis of the deposited data

Results flagged for a closer look

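The Myc signal of Aag 24 h replicate 1 was 2.72, far from the other 3 arrays of its group (1.58 to 1.69), with a gap of 0.903 of the group's range, above the 95% critical value of Dixon's test for 4 arrays. That array is also 1 of the 3 with a high reading of the female-typical Cyp2b9. In all, 30 such tests were made, 1 for each member probe set in each group of 4 arrays, and chance flags about 1 in 20.

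The responses of Fos (161716_at) to MMS at 48 h differed between the genotypes, with an interaction of 0.91 (adjusted p = 0.0176 by limma): 0.43 in Aag liver and -0.48 in WT liver. The second Fos probe set had no call, and the value without WT 48 h replicate 1 was 0.64 (adjusted p = 0.202). Over all alternatives the interaction ran from 0.64 to 1.18 and its adjusted p from 0.00397 to 0.202.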

How the results depend on the processing

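No called value of a member reversed under any alternative. The count of member genes called in WT liver at 48 h was 1, and 0 on the deposited scale, with the filter on dim probe sets (alone or with 1 probe set per gene), with the replicate block, with array weights, with a term for the array set and with the groups compared alone; it was 0 to 1 with single arrays left out. At 6 h in WT liver it was 0, and 0 to 1 with arrays left out. In Aag liver the count of 1 became 0 without the female-typical arrays and with the groups compared alone at 6, 12, 24 and 48 h, on the deposited scale at 12, 24 and 48 h, and with median centring and the replicate block at 48 h (Egr1 adjusted p = 0.0535 and 0.055). With array weights it was 2 at 24 h (Fos added) and 3 at 48 h (Fos and Ier2 added). With arrays left out it was 0 to 1 at 6 and 12 h, 0 to 2 at 24 h and 0 to 3 at 48 h; leaving out Aag untreated replicate 3, the female-typical one, ended the Egr1 call at all 4 times (adjusted p = 0.062, 0.112, 0.0889 and 0.151) with sizes of -0.79, -0.80, -0.62 and -0.68. The call was also lost without replicates 1 or 3 at 6 h, and without any single Aag array of that time at 12, 24 and 48 h. Over all alternatives the Egr1 adjusted p ran from 0.00528 to 0.49 at 6 h, 0.0011 to 0.9 at 12 h, 0.00836 to 0.616 at 24 h and 0.00813 to 0.254 at 48 h. Aag against WT untreated liver had 2 called and 1 with the filter (alone or with 1 probe set per gene), with a term for the array set, without the female-typical arrays and, in an alternative chosen after seeing the data, with Aag untreated arrays of the high set only; it had 0 with array weights and with the groups compared alone, and 1 to 2 with arrays left out. The interaction at 48 h had 1, and 0 with either filter, with array weights, without the female-typical arrays and with the groups compared alone, and 0 to 1 with arrays left out. The interaction at 24 h had 0 to 1 with arrays left out. The 48 h less 6 h contrast in Aag liver had 0, and 1 with array weights (Jund, -0.49, adjusted p = 0.0385). The dim Fos probe set is not tested under the filter, which accounts for those losses. The cause of the others was not tested.

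Replicate numbers recur across groups. The correlation of same-numbered arrays' deviations from their group means ran from -0.344 to 0.138 between treated and untreated Aag liver at 6 h, was 0.741 and 0.887 between Aag and WT liver at 6 h, and was -0.675 between WT 48 h and WT 6 h arrays, so the numbers were not taken as pairs. With the replicate block the Egr1 responses in Aag liver were -0.88, -0.89, -0.62 and -0.77 at 6, 12, 24 and 48 h, and other than at 48 h in either genotype the block changed no member call.

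Over all probe sets the count called moved with the fit. In WT liver it was 2092 at 6 h and 2 with array weights, and 185 with a term for the array set. In Aag liver it was 39 at 6 h and 692 with array weights, and 29 at 48 h and 753 with array weights.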
